A study of Mus musculus with 6 samples.

Results

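A set of 10 genes of lipid droplets and hepatic steatosis was followed in the livers of mice with diet-induced non-alcoholic steatohepatitis (NASH). They were Plin2, Plin4, Plin5, Cidea, Cidec, Cd36, Fabp4, G0s2, Hsd17b13 and Pparg. The genes were chosen by name for their known roles, and all 10 were found among the 27381 genes of the expression table by Entrez gene number. The comparison asked whether hepatocyte-directed expression of glutaredoxin-1 (Glrx, a small enzyme that removes glutathione from protein thiols) went with a different level of these mRNAs.

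Male C57BL/6J mice entered the study at 10 weeks of age and ate a NASH diet (palm oil for 40% of energy, fructose for 20%, with 2% cholesterol) for 32 weeks. At week 20 of the diet they received 1e+12 vector genomes of an adeno-associated virus (AAV) into the peritoneum, and the livers were taken 12 weeks later. The AAV-Glrx vector carried mouse Glrx with an HA/FLAG tag and a woodchuck post-transcriptional element behind the Serpina7 (thyroxine-binding globulin, TBG) promoter, which is active in hepatocytes, and the AAV control vector carried the same promoter with no insert. RNA from 5 or 6 whole livers per group was combined into 3 pools per group and each pool was read on 1 Affymetrix array. Every mouse of both groups therefore had the NASH diet and an AAV, and no array of a mouse on regular chow was analysed here. The sources do not say which mice entered which pool, and the p-values measure the spread between pools and not the spread between mice. In whole liver, a smaller number of cells of a type and less RNA per cell cannot be told apart.

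A lipid droplet is a store of triglyceride and sterol esters inside a single layer of phospholipid. Perilipins coat its surface and control the access of lipases, CIDE proteins pass lipid from small droplets to larger ones, and fatty acids reach the hepatocyte through membrane carriers and intracellular binding proteins. In fatty mouse liver the nuclear receptor PPARG, working with RXR, is known to raise several of these genes, among them Cidea, Cidec, Plin4, Cd36 and Fabp4. PPAR:RXR dimers bind a repeat of the hexamer AGGTCA with 1 base between the copies.

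Because several of these genes are known PPARG targets, their promoter sequences were read from RefSeq (GRCm38.p6), taking the 250 bases before each start. The search covered 12 promoters of 8 of the 10 genes, with none of Cidea or Fabp4. Promoters of the 10 genes on a single chromosome were left out before this count, but were kept in the shares over all promoters. The count therefore does not show whether the promoter table lacked Cidea and Fabp4. The hexamer AGGTCA, on either strand, was found in 6 of the 12 promoters searched, which belonged to 5 genes. It was in 14% of the 32851 promoters of the table. The full repeat AGGTCANAGGTCA was in 0 of the 12 promoters and in 0.0335% of all. The windows with a hexamer are shown on the strand of the gene with its letters in capitals (AGGTCA, or TGACCT where it lies on the opposite strand). A match describes the letters and is no evidence of binding.
Cd36, chr5:17836102-17836141 (minus strand), hexamer 228 to 223 bases before the start: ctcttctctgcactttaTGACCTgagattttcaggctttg
Hsd17b13, chr5:103977462-103977501 (minus strand), 96 to 91 bases before the start: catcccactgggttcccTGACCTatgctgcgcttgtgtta
Plin2, chr4:86670255-86670294 (minus strand), 218 to 213 bases before the start: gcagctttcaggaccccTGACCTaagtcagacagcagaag
Plin5, chr17:56117696-56117735 (minus strand), 170 to 165 bases before the start: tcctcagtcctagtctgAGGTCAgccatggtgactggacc
Pparg, chr6:115361099-115361138 (plus strand), 28 to 23 bases before the start: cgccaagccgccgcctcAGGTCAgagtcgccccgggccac
Pparg, chr6:115362323-115362348 (plus strand), 9 to 4 bases before another start: atataagggacgcgaggAGGTCAaga

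All values are log2 expression, so a difference of 1 is 2-fold, and a log2 fold change is AAV-Glrx minus AAV control. The 6 arrays had medians from 3.89 to 3.95 and Pearson correlations across genes from 0.987 to 0.991, and with 6 arrays the precision is limited. Glrx itself read 6.60, 7.77 and 7.24 in AAV-Glrx pools 1, 2 and 3, against 6.11, 6.03 and 5.66 in the AAV control pools, with the highest value in AAV-Glrx pool 2. Zbtb16, a zinc finger transcription factor, was the only gene of the table past the threshold of adjusted p under 0.1 in limma (adjusted p = 0.0896), with a log2 fold change of -2.12 (SE 0.18), a call that was lost without AAV-Glrx pool 1 or 3 and without AAV control pool 2 or 3. The 11 measured hepatocyte markers averaged 10.68 to 10.72 in the AAV-Glrx pools and 10.74 to 10.78 in the AAV control pools. Of these 11, 5 had a higher and 6 a lower mean in AAV-Glrx (median log2 fold change -0.04). Tat (-0.47) and Pck1 (-0.31) had the largest differences among them, and weighed on the averages. The 13 measured macrophage and Kupffer cell markers averaged 6.33 to 6.62 in AAV-Glrx and 6.51 to 6.78 in AAV control. Endothelial markers (12 measured) averaged 7.05 to 7.20 in AAV-Glrx and 7.19 to 7.23 in AAV control, and stellate cell markers (11 measured) averaged 6.69 to 6.81 in AAV-Glrx and 6.68 to 6.85 in AAV control.

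None of the 10 genes passed the test of AAV-Glrx against AAV control livers, which was run over the whole table. Their adjusted p ran from 0.858 to 0.964 (limma, Benjamini-Hochberg over 27381 genes), and 0 of 10 passed, where 0.00365% of all genes did. No member reached an unadjusted p under 0.05 either, a level that 5.77% of all genes reached (2.76% higher and 3.01% lower in AAV-Glrx). The mean was higher in AAV-Glrx for 7 genes and lower for 3, where 49.5% of all genes had a higher mean. The median log2 fold change of the 10 was 0.10, against -0.0012 over all genes. Cidea was the only member whose groups did not overlap, which was also the case for 10.9% of all genes (5.51% with AAV-Glrx above, 5.38% with it below). The 95% interval of the difference lay within 2-fold in either direction for 9 of the 10 genes, Cidea being the exception, and within 1.5-fold for 7, the others being Cidec and G0s2. A p that misses the threshold does not show that the groups were the same.

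**Figure D1:**
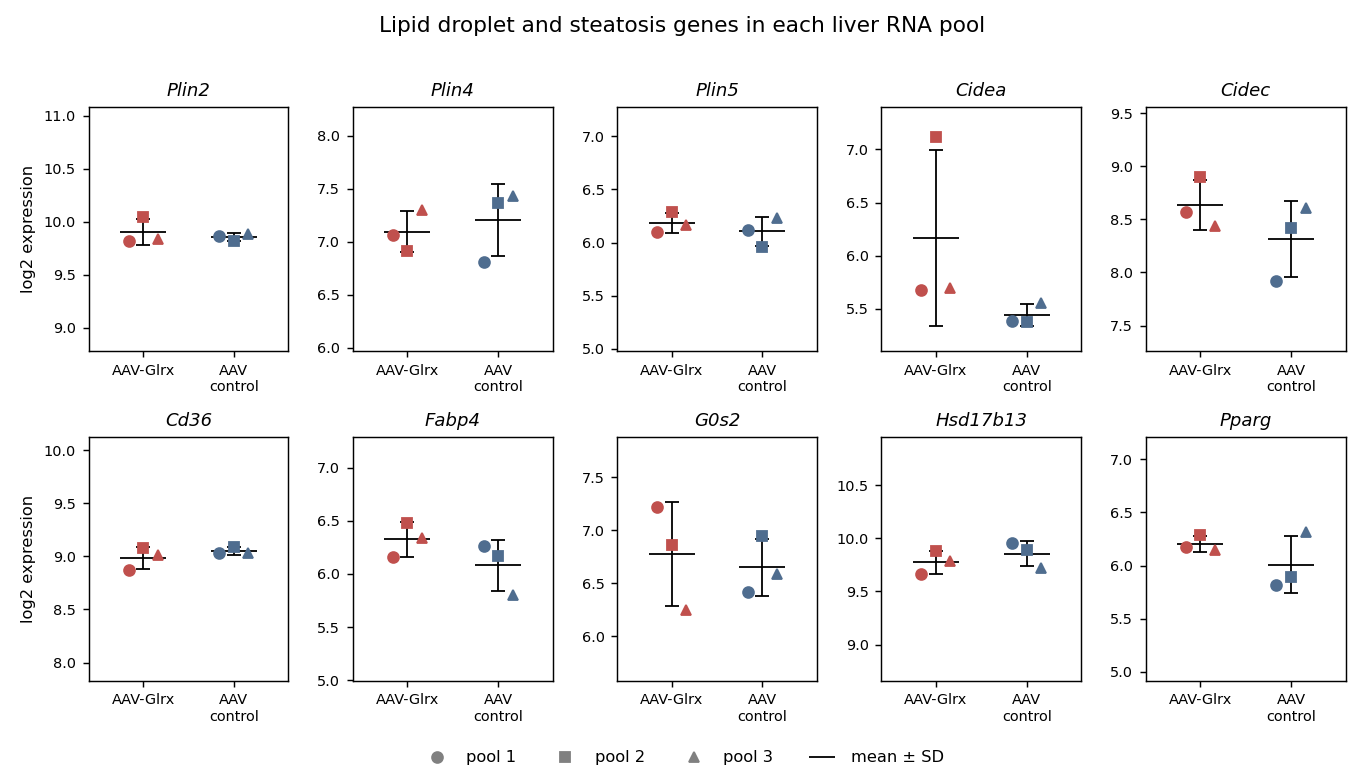
Log2 expression (vertical axis, the same span in every panel) of the 10 genes in each RNA pool, with AAV-Glrx pools in red and AAV control pools in blue. Symbols mark the pool numbers, and bars give the mean ± SD of 3 pools. Cidea in AAV-Glrx pool 2, at 7.12, stands apart from the other 5 pools, and the groups overlap in each of the other 9 panels.

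None of the 3 perilipins, which coat the droplet, passed, and their groups overlapped. Plin2, the coat protein of most hepatocyte droplets and a common readout of hepatic fat, read 9.82, 10.05 and 9.84 in AAV-Glrx pools 1 to 3, against 9.87, 9.82 and 9.89 in AAV control pools 1 to 3. The 3 AAV control pools and 2 of the AAV-Glrx pools lay together, and AAV-Glrx pool 2 was the highest. The means were 9.90 ± 0.12 in AAV-Glrx and 9.86 ± 0.04 in AAV control (SD, n = 3 each), a log2 fold change of 0.05 (SE 0.09, 95% interval -0.17 to 0.26, adjusted p = 0.964, limma).

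Plin5, which ties droplets to mitochondria in cells that burn fat, read 6.10, 6.29 and 6.16 in AAV-Glrx, against 6.12, 5.96 and 6.23 in AAV control. The ranges overlapped, with the highest value in AAV-Glrx pool 2 and the lowest in AAV control pool 2. The log2 fold change was 0.08 (SE 0.10, 95% interval -0.16 to 0.32, adjusted p = 0.943, limma). It was 0.0084 without AAV control pool 2 and 0.027 without AAV-Glrx pool 2. Plin4, a perilipin of nascent droplets best known from adipocytes, read 7.07, 6.92 and 7.30 in AAV-Glrx, against 6.81, 7.37 and 7.43 in AAV control. The AAV control pools held both the lowest and the highest values and enclosed the AAV-Glrx range. The difference was -0.11 (SE 0.18, 95% interval -0.52 to 0.31), and Plin4 was the perilipin with the widest interval.

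Both CIDE genes of the set had the largest mean differences of the 10, and neither passed. Their proteins gather at contact sites between droplets and enlarge them. Cideb, a CIDE gene outside the set, had a log2 fold change of -0.07 (SE 0.10), and its groups overlapped. Cidea, which is scarce in lean liver and known to rise with steatosis, read 5.68, 7.12 and 5.69 in AAV-Glrx pools 1 to 3, against 5.38, 5.38 and 5.56 in AAV control pools 1 to 3. All AAV-Glrx pools lay above all AAV control pools, AAV-Glrx pools 1 and 3 by little, and AAV-Glrx pool 2 stood far above the other 5. The means were 6.16 ± 0.83 in AAV-Glrx and 5.44 ± 0.10 in AAV control (SD, n = 3 each), a log2 fold change of 0.72 or 1.65-fold (SE 0.35, 95% interval -0.10 to 1.54, unadjusted p = 0.0764, adjusted p = 0.858, limma).

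The size of the Cidea difference rested on 1 pool. Without AAV-Glrx pool 2 the log2 fold change was 0.24 (SE 0.11, adjusted p = 0.932, limma), and the fits that left out another pool gave 0.69 to 0.97. The residual SD of Cidea was at the 99.3 percentile of all genes. Its range over the 6 pools was matched or passed by 146 genes, 0.533% of the table.

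Cidec (also called Fsp27), which like Cidea enlarges droplets and is a PPARG target in fatty liver, read 8.57, 8.90 and 8.43 in AAV-Glrx, against 7.92, 8.42 and 8.61 in AAV control. AAV control pool 1 was the lowest of the 6 by a wide margin, AAV-Glrx pool 2 was the highest, and AAV control pool 3 lay above 2 of the AAV-Glrx pools. The means were 8.63 ± 0.24 in AAV-Glrx and 8.32 ± 0.36 in AAV control (SD, n = 3 each), with a log2 fold change of 0.32 (SE 0.19, 95% interval -0.13 to 0.76, adjusted p = 0.879, limma). Without AAV control pool 1 the difference was 0.12.

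**Figure D2:**
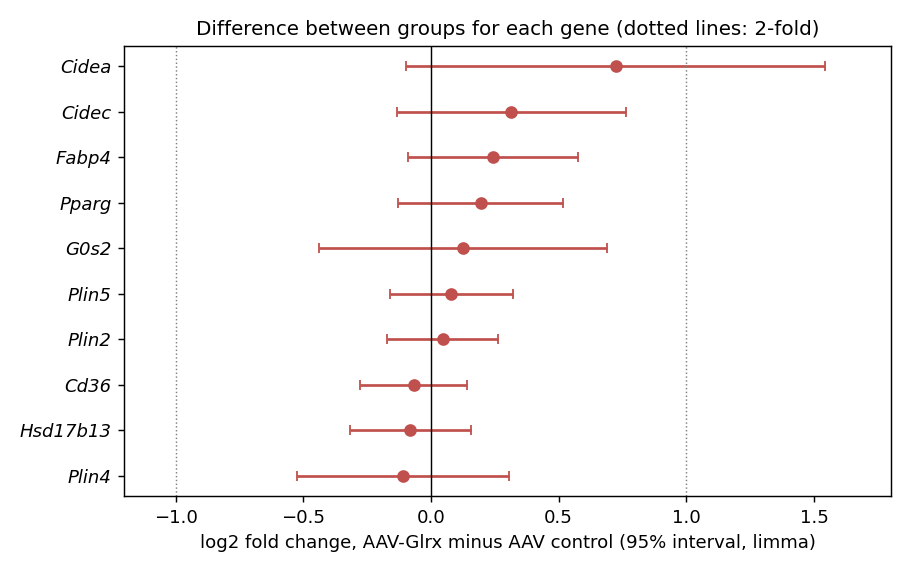
Log2 fold change (horizontal axis, AAV-Glrx minus AAV control) of each of the 10 genes with its 95% interval from limma, ordered by size, with dotted lines at 2-fold. Every interval includes 0, and that of Cidea, from -0.10 to 1.54, is the only one that passes a dotted line.

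The genes of fatty acid entry and binding did not pass. Cd36, a membrane receptor that takes up long-chain fatty acids, read 8.87, 9.07 and 9.01 in AAV-Glrx, against 9.03, 9.09 and 9.03 in AAV control. The AAV control pools lay close together, AAV-Glrx pool 2 fell among them, and AAV-Glrx pool 1 was the lowest of the 6. The log2 fold change was -0.07 (SE 0.09, 95% interval -0.28 to 0.14), so a change of 1.5-fold in either direction lay outside the interval. Without AAV-Glrx pool 1 it was -0.0086.

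Fabp4, a fatty acid binding protein of adipocytes and macrophages that is also raised in fatty liver, read 6.16, 6.48 and 6.34 in AAV-Glrx, against 6.27, 6.17 and 5.81 in AAV control. AAV-Glrx pools 2 and 3 were the highest, AAV-Glrx pool 1 fell among the AAV control pools, and AAV control pool 3 was the lowest. The means were 6.33 ± 0.16 in AAV-Glrx and 6.08 ± 0.24 in AAV control (SD, n = 3 each), a log2 fold change of 0.24 (SE 0.14, adjusted p = 0.876, limma). It was 0.11 without AAV control pool 3, and the fits that left out 1 pool ran from 0.11 to 0.34. Fabp4 is also made by macrophages and adipocytes, whose markers are given with this gene. Of 13 macrophage and Kupffer cell markers, 12 had a lower mean in AAV-Glrx (median log2 fold change -0.08), with 0 past the threshold. Of 7 adipocyte markers 5 had a higher mean (median 0.05), and 0 passed. Their part in the Fabp4 values was not tested.

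The products of G0s2 and Hsd17b13 act at the droplet surface. G0s2, the inhibitor of adipose triglyceride lipase (Pnpla2), read 7.22, 6.86 and 6.25 in AAV-Glrx, against 6.42, 6.94 and 6.58 in AAV control. The AAV-Glrx pools held both the highest and the lowest values. The means were 6.77 ± 0.49 in AAV-Glrx and 6.65 ± 0.27 in AAV control (SD, n = 3 each), a log2 fold change of 0.13 (SE 0.24, 95% interval -0.44 to 0.69), smaller than the spread between pools. Without AAV-Glrx pool 1 the log2 fold change was -0.10.

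Hsd17b13, a hepatocyte enzyme of the droplet surface whose human gene carries variants linked to liver disease risk, read 9.66, 9.88 and 9.79 in AAV-Glrx, against 9.95, 9.89 and 9.72 in AAV control. The ranges overlapped over most of their length. The log2 fold change was -0.08 (SE 0.10, 95% interval -0.32 to 0.16), and it stayed negative in every fit that left out 1 pool (-0.14 to -0.02).

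Pparg, the transcription factor of the group, read 6.17, 6.29 and 6.15 in AAV-Glrx, against 5.81, 5.89 and 6.32 in AAV control. The 3 AAV-Glrx pools lay close together, above AAV control pools 1 and 2 and below AAV control pool 3. The means were 6.20 ± 0.08 in AAV-Glrx and 6.01 ± 0.27 in AAV control (SD, n = 3 each), a log2 fold change of 0.20 (SE 0.14, 95% interval -0.13 to 0.52, adjusted p = 0.895, limma). The difference depended on the AAV control pools. The log2 fold change was 0.10 without AAV control pool 1 (unadjusted p = 0.513, adjusted p = 0.956, limma) and 0.14 without AAV control pool 2. Without AAV control pool 3 it was 0.35 (unadjusted p = 0.0118, adjusted p = 0.865, limma) and the AAV-Glrx pools lay above both AAV control pools left. In that fit the groups did not overlap for 4 of the 10 members (Cidea, Cidec and Pparg higher in AAV-Glrx, Hsd17b13 lower) and for 21.4% of all genes.

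The values were also read pool by pool. AAV-Glrx pool 2, which also had the highest Glrx signal, held the highest value of 5 members (Plin2, Plin5, Cidea, Cidec and Fabp4), the lowest of none, and lay above the mean of the gene for 9 members, Plin4 being the exception. The median deviation of the 10 genes in that pool was 0.16. AAV control pool 1 held the lowest value of 3 members (Plin4, Cidec and Pparg), with a median deviation of -0.16. In that pool the macrophage and Kupffer cell markers averaged 6.78, the highest of the 6. The median deviation of the 10 genes was between -0.05 and 0.01 in each of the other 4 pools. Among these, AAV control pool 2 also held the lowest value of 3 members (Plin2, Plin5 and Cidea). The count of lowest values therefore did not set AAV control pool 1 apart, and its median deviation did. The 2 pool patterns were not particular to the 10 genes. In each of the 7 lists of other lipid genes described below, the median deviation was above 0 in AAV-Glrx pool 2 (0.02 to 0.12). It was below 0 in AAV control pool 1 in each list (-0.18 to -0.0004). A count over all genes was not made. Glrx signal and marker levels by pool are given as measured, and their part in these values was not tested.

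**Figure D3:**
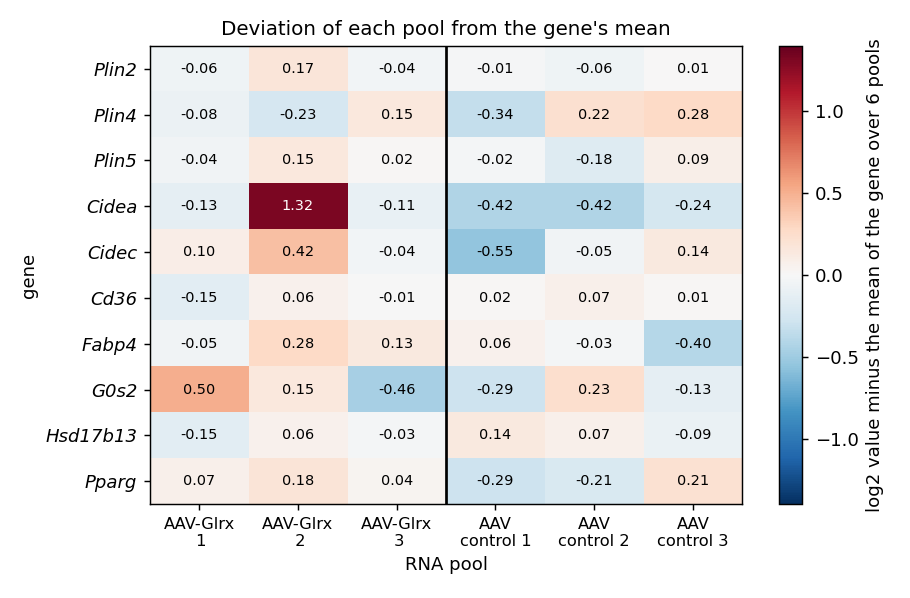
Deviation of each pool from the mean of the gene over 6 pools, on the log2 scale (colour and number), with the 3 AAV-Glrx pools left of the line and the 3 AAV control pools right of it. The column of AAV-Glrx pool 2 is above the mean for 9 of the 10 genes, with Cidea at 1.32, and the AAV-Glrx columns 1 and 3 do not share that pattern.

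Cidea is also a gene of brown adipocytes, so adipocyte genes were read in the same pools. Adiponectin (Adipoq) read 2.00, 2.25 and 2.42 in AAV-Glrx, against 2.06, 2.06 and 2.37 in AAV control, and leptin (Lep) read 2.68, 2.89 and 2.68 in AAV-Glrx, against 2.57, 2.74 and 2.87 in AAV control. Ucp1, the uncoupling protein of brown fat, read 2.85, 2.99 and 2.94 in AAV-Glrx, against 2.82, 2.85 and 3.03 in AAV control. All 3 stayed below the median signal of every array in all pools, and AAV-Glrx pool 2 was not their highest pool except for Lep. The 7 measured adipocyte markers averaged 3.37, 3.42 and 3.48 in AAV-Glrx and 3.32, 3.40 and 3.41 in AAV control. Of these 7 markers, 2 (Lipe and Retn) lay above the median signal of all genes. Lipe read 5.36, 5.38 and 5.44 in AAV-Glrx, against 4.81, 5.24 and 5.30 in AAV control (log2 fold change 0.28, SE 0.14). Its groups did not overlap, as for 10.9% of all genes. Retn read 3.96, 4.31 and 4.43 in AAV-Glrx, against 4.51, 4.21 and 4.41 in AAV control (-0.15, SE 0.14). The part of adipocyte RNA in the Cidea values was not tested.

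The genes whose pattern was most like that of Cidea over the 6 pools were sought among 661 named genes with a range of at least 1 on the log2 scale. The 5 with the highest Pearson r were Tdg (0.965), Olfr103 (0.929), Zfp979 (0.914), Pcdha12 (0.909) and Pdcd5 (0.906). All 5 were highest in AAV-Glrx pool 2, as were 96 of the 661. Tdg, a DNA glycosylase, read 1.84, 2.43 and 1.73 in AAV-Glrx, against 1.43, 1.43 and 1.54 in AAV control, in the low range of the array. The group means of Zfp979, Pcdha12 and Pdcd5 were also below the median level of all genes (3.92), and those of Olfr103 were above it. With 6 pools and 1 that stands apart, such values of r describe that pool.

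The other genes of droplet and lipid handling, in 7 lists of 145 symbols of which 129 were measured here, were set beside the 10. None passed the threshold. An unadjusted p under 0.05 was reached by 11 genes (7 with a higher and 4 with a lower mean in AAV-Glrx), which is 8.53% against 5.77% of all genes, and the groups did not overlap for 16 (12.4%, against 10.9% of all genes). The median log2 fold change over the 129 was 0.03. These counts are near the background of the table.

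Of 30 genes of droplet coat, biogenesis and droplet enzymes, 21 had a higher and 9 a lower mean in AAV-Glrx (median 0.04), and 1 was at an unadjusted p under 0.05. The 2 with the smallest p were Sqle, squalene epoxidase of sterol synthesis (log2 fold change 0.30, SE 0.13), and Fitm2, which helps droplets form at the endoplasmic reticulum (0.32, SE 0.17). Fitm2 read 7.54, 7.73 and 7.55 in AAV-Glrx, against 6.87, 7.49 and 7.50 in AAV control, where AAV control pool 1 was low as for Cidec.

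Of 17 genes of lipolysis and lipophagy, 11 had a higher and 6 a lower mean (median 0.04), with 2 at an unadjusted p under 0.05. Both were carboxylesterases that hydrolyse lipid esters in liver. Ces1d read 8.35, 8.53 and 8.26 in AAV-Glrx, against 7.83, 8.11 and 8.11 in AAV control (log2 fold change 0.36, SE 0.12, adjusted p = 0.847, limma). Ces3a had a log2 fold change of 0.28 (SE 0.11). Carboxylesterases are a family of near-identical genes, so signal may be shared between their probes.

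Of 18 genes of triglyceride and sterol ester synthesis, 11 had a higher and 7 a lower mean (median 0.02). At an unadjusted p under 0.05 stood 1 with a higher and 2 with a lower mean. Tm6sf2, an endoplasmic reticulum protein needed to load lipid onto secreted lipoproteins, read 5.88, 5.72 and 5.94 in AAV-Glrx, against 6.21, 6.26 and 6.20 in AAV control. Every AAV-Glrx pool was below every AAV control pool, by a log2 fold change of -0.37 (SE 0.09, unadjusted p = 0.00383, adjusted p = 0.847, limma). Lpin3, a lipin (phosphatidate phosphatase), had a log2 fold change of 0.20 (SE 0.08). The other lipins, named after their values were seen, had lower means in AAV-Glrx. Lpin2 read 8.78, 9.13 and 9.10 in AAV-Glrx, against 9.07, 9.42 and 9.62 in AAV control (log2 fold change -0.37, SE 0.16, unadjusted p = 0.0497, adjusted p = 0.858, limma). Lpin1 read 7.32, 7.85 and 7.59 in AAV-Glrx, against 7.55, 8.39 and 8.36 in AAV control (-0.51, SE 0.24, unadjusted p = 0.0655, limma).

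Of 16 genes of fatty acid uptake and binding, 9 had a higher and 7 a lower mean (median 0.03). Slc27a1, a fatty acid transport protein with acyl-CoA synthetase activity, read 4.85, 4.69 and 4.86 in AAV-Glrx, against 4.52, 4.47 and 4.61 in AAV control. The groups did not overlap (log2 fold change 0.26, SE 0.09, adjusted p = 0.847, limma). Fabp5, the epidermal fatty acid binding protein, had a log2 fold change of 0.20 (SE 0.12).

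Of 22 PPARs, RXRs, coactivators and other lipid transcription factors, 13 had a higher and 9 a lower mean (median 0.02), with 1 in each direction at an unadjusted p under 0.05. Cebpb, a factor of the acute phase and of adipogenesis, read 6.22, 6.38 and 6.31 in AAV-Glrx, against 6.45, 6.75 and 6.64 in AAV control, with no overlap (log2 fold change -0.31, SE 0.10). Srebf1, the regulator of fatty acid synthesis genes, read 7.84, 7.98 and 7.71 in AAV-Glrx, against 7.62, 7.69 and 7.46 in AAV control (0.25, SE 0.11). Neither passed the threshold.

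Of 17 other genes known to rise with PPARG in fatty mouse liver, 5 had a higher and 12 a lower mean (median -0.09), while Pparg itself had a higher mean. At an unadjusted p under 0.05, Aqp7, a glycerol channel, was higher and Pdk4, a kinase that restrains glucose oxidation, was lower. Aqp7 read 5.87, 6.05 and 6.01 in AAV-Glrx, against 5.41, 5.75 and 5.85 in AAV control (log2 fold change 0.31, SE 0.13), and Pdk4 had a log2 fold change of -0.38 (SE 0.13). Pdk4 was also in the list of PPARA targets. Of the 17 measured genes of that list, 9 had a higher and 8 a lower mean (median 0.02), and Cyp4a10, a fatty acid omega-hydroxylase, had a log2 fold change of -0.59 (SE 0.26), with AAV-Glrx pools from 6.58 to 7.16 and AAV control pools from 6.82 to 7.74.

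**Figure D4:**
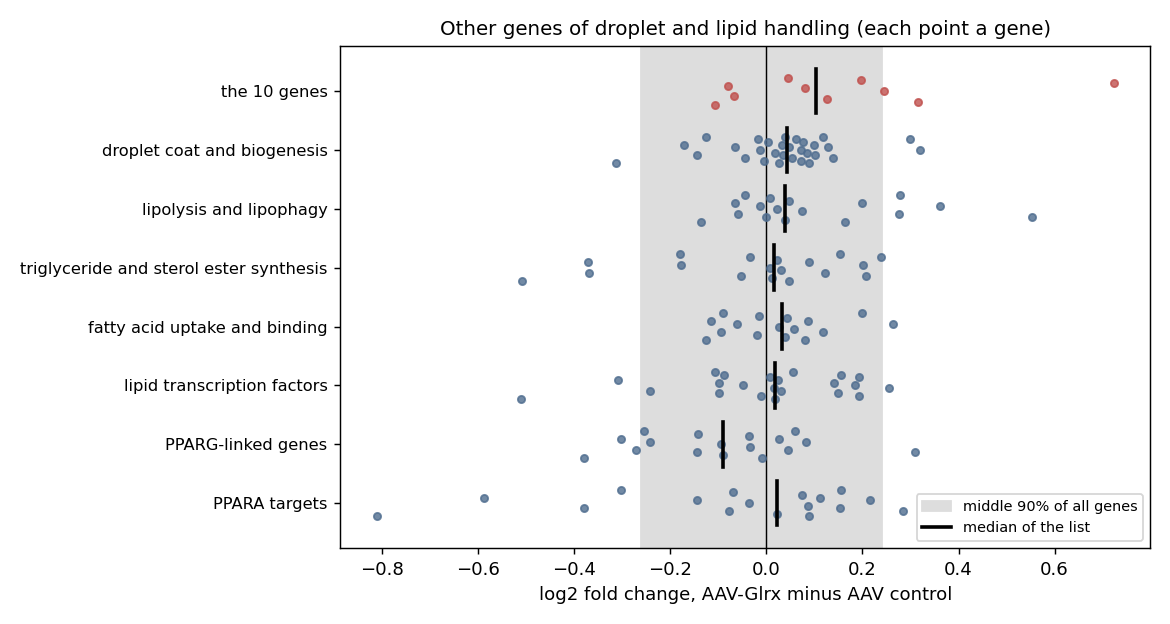
Log2 fold change (horizontal axis, AAV-Glrx minus AAV control) of each gene of the 7 lists and of the 10 genes (red), with the median of each list as a black bar and the middle 90% of all genes as a grey band. The list medians lie between -0.09 and 0.04 and that of the 10 genes at 0.10. The band is a range of single genes and sets no scale for the medians.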

How the data were processed

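Total RNA from 6 pools of whole mouse liver, 3 per group, was read on Affymetrix Mouse Gene 2.0 ST arrays. The authors summarised the probes with the Robust Multiarray Average (RMA) under Brainarray's gene definitions and deposited 1 log2 value for each Entrez gene and array. The tools were affy 1.61.0 under R 3.6.0, from the submitters' processing notes. RMA brings all arrays to one intensity distribution, so a shift of most genes in the same direction could not be seen, and it compresses differences near background.

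The table was fitted whole with lmFit and eBayes (limma 3.58.1, R 4.3.3), with no covariate and no filter, and p was adjusted by Benjamini-Hochberg over 27381 genes with a threshold of 0.1. That threshold was set so that Zbtb16, which the study treats as changed, counts as a call. Of the genes, 587 probes had no single symbol in the platform annotation (none, or several) and are not named. The fit was tested on simulated data with 200 changed genes. An exact two-sided permutation test of 3 against 3 cannot go below p = 0.1, so none was used. Groups followed the labels.

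Named genes were the 10 genes, the 2 with the smallest p in each list, Glrx, Zbtb16 and the 5 most like the member of widest range. Ucp1, Adipoq, Lep, Lipe, Retn, Lpin1, Lpin2, Tat, Pck1 and Cideb fall outside this rule and were chosen after values had been seen. The 10 genes, the lists, their names and the threshold were chosen with earlier results of these data known. From the lists, 16 pathway symbols and 6 marker symbols were not analysed here. Alternatives changed the scaling, prior variance, weights, filter, threshold, replicate block and each pool in turn.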

Additional observations from a re-analysis of the deposited data

How the results depend on the processing

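The 10 genes were refitted under 13 alternatives, and none passed the threshold (lowest adjusted p 0.734, limma). By construction 4 of these (the level filter, trend, robust prior and block) leave the fold changes as they are. Of the 90 values under the other 9, 87 kept their direction and 3 reversed: G0s2 without AAV-Glrx pool 1 (-0.10), Plin2 without AAV-Glrx pool 2 (-0.026) and Plin4 without AAV control pool 3 (0.0053). Leaving out 1 pool gave ranges of -0.10 to 0.39 for G0s2, -0.026 to 0.087 for Plin2 and -0.30 to 0.0053 for Plin4, 0.0084 to 0.14 for Plin5, -0.11 to -0.0086 for Cd36, 0.10 to 0.35 for Pparg, and 0.05 to 0.16 for the median of the 10 genes. The count of members at an unadjusted p under 0.05, 0 with all pools, was 0 to 1 with a pool left out: Pparg without AAV control pool 3, and Cidea without AAV-Glrx pool 1 or pool 3. In the fits without a pool, 5.14% to 6.15% of all genes reached that level. The count of members whose groups did not overlap was 1 to 4, where 20.4% to 21.9% of all genes did not overlap. Over the whole table, 1 gene passed, against 0 at adjusted p under 0.05, 0 after a second quantile normalization, and 0 to 2 with a pool left out (2 without AAV control pool 1, 1 without AAV-Glrx pool 2, 0 without each other pool). The count of list genes at an unadjusted p under 0.05, 11 with all pools, was 5 to 11 with a pool left out (5 without AAV control pool 2, 6 without AAV-Glrx pool 1). The cause of these shifts was not tested. With the replicate block 0 genes passed. Same-numbered pools did not deviate together (correlations -0.0361, -0.171 and 0.0205), and pools of unlike number gave -0.14 to 0.178. With so few pools these values do not settle whether the numbers pair the samples, and the labels do not say. With 3 pools per group, the 95% intervals leave differences of up to 2.92-fold for Cidea and about 1.6-fold to 1.7-fold for G0s2 and Cidec unresolved.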
